A study of Mus musculus with 3 samples.

Results

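Transcripts of 10 genes of the primitive endoderm and its uptake machinery were measured by RNA-seq in mouse embryonic stem (ES) cells that made the histone variant H2A.Z with its C-terminal lysines replaced or intact. The genes were chosen by name, for their roles in primitive and visceral endoderm, with earlier results of these data known. All 10 were found among the 15311 genes of the deposited table. They are the transcription factor genes Gata4, Gata6, Sox7 and Sox17, the receptor tyrosine kinase gene Pdgfra, the endocytic receptor genes Cubn, Amn and Lrp2, the adaptor gene Dab2 and the proteoglycan gene Srgn. The K3R3 cells, with 1 library, made H2A.Z joined to yellow fluorescent protein (YFP), with 3 C-terminal lysines changed to arginine. The wild-type cells, with 2 libraries, expressed the same fusion with its lysines intact. Both transgenes were carried by lentivirus in KH2 ES cells, driven by a CMV promoter under rtTA control and induced with doxycycline at 1 µg/ml, and YFP-positive cells were sorted. Both lines also carried an RNA hairpin that targets the 3′ UTR of the cells' own H2A.Z transcript, so the wild-type cells were not unmanipulated, and the labels give the strain of all 3 samples as V6.5 (129SvJaexC57BL/6). The labels do not say which of the hairpins was used, whether a line was 1 clone, or whether the wild-type pair are separate cultures. The p-values therefore rest on a spread between samples that may be technical only.

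Primitive endoderm is the first endoderm of the mouse embryo and forms beside the epiblast, from which ES cells are derived. Gata6 and Gata4, then Sox17 and Sox7, mark and drive this lineage, while Nanog and its partners oppose it in the epiblast. Its derivative, the visceral endoderm, takes up maternal proteins and lipids from outside the embryo through cubilin and megalin, 2 large apical receptors that are also found in kidney tubules. A few cells of an ES culture can drift towards this fate, and most of these genes carry bivalent promoters in ES cells, that is, promoters with both an activating and a Polycomb mark.

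The libraries held 24718223 counts in K3R3 and 21614693 and 25426228 counts in wild type. H2afz, the gene of the targeted histone, had 5770 counts in K3R3 and 4605 and 5750 counts in wild type. Both arms carry the hairpin and a coding transgene, so this gene checks neither the knockdown nor the column names. Levels below are CPM, that is, counts scaled to a common library size after TMM scaling of the libraries, with wild type as mean ± SD (n = 2) and K3R3 as the value of its lone library. Levels of different genes are compared only as RPKM, the authors' read counts scaled to gene length and library size. Fitted differences are log2 values of K3R3 minus wild type with their standard error (SE) from the two-sided quasi-likelihood test of edgeR, and a gene was called at a Benjamini-Hochberg adjusted p under 0.05 over the 13829 genes whose mean reached 0.5 CPM. Differences from a single wild-type library are log2 CPM with a prior count of 1, and carry no test.

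The K3R3 library had lower levels of cubilin and serglycin transcripts by more than 4-fold, and lower Gata6, whereas Sox7, Sox17, Lrp2 and Pdgfra stood inside or at the edge of the wild-type range. Amn passed no filter, and of the 9 genes tested 3 fell, 0 rose and 6 were not called. Over all 13829 genes tested, 0.542% were called lower in K3R3 and 2.02% higher. At an unadjusted p under 0.05, 5 of the 9 were lower and 0 higher. Of all 13829 genes tested, 460 (3.33%) were lower at that threshold and 1092 higher. In 6 of the 9 the K3R3 value lay below both wild-type values, a position held by 34.2% of all genes tested, and in the other 3 it lay between them. DESeq2 called 2 of the 9 lower, Cubn and Srgn, where it called 0.188% of all genes lower and 0.239% higher. The median fitted difference of the 9 was -0.80, beside -0.01 over all genes tested. Because the genes were chosen with earlier results of these data known, these shares and medians are not a blind contrast. In bulk RNA, fewer cells of a type and less RNA per cell cannot be told apart.

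**Figure D1:**
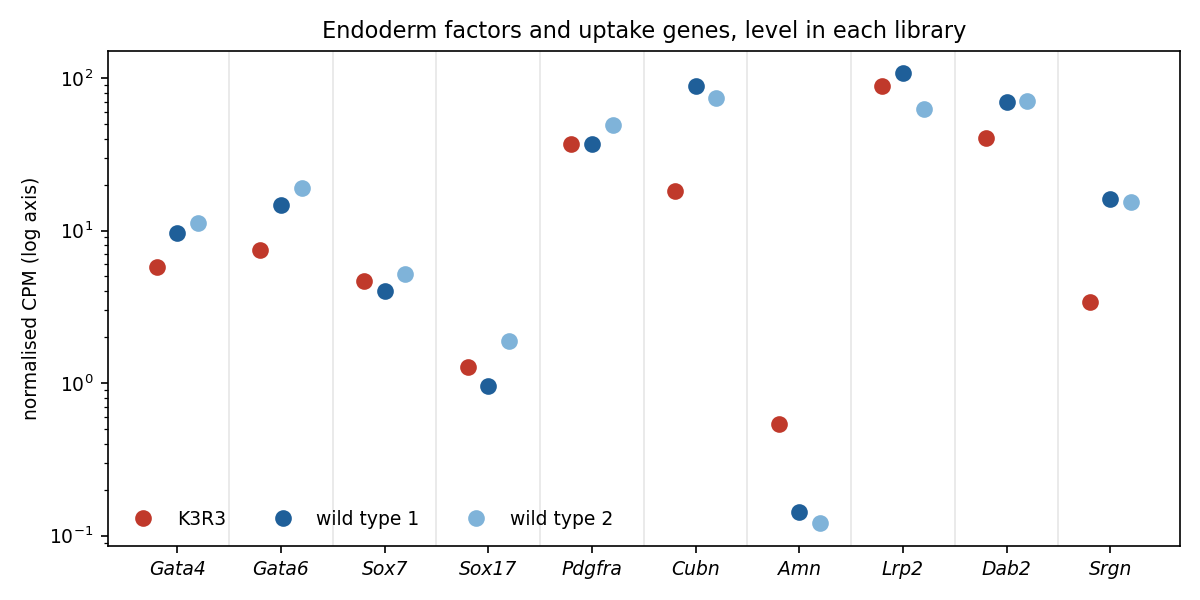
Normalised CPM (log axis) of the 10 genes in the K3R3 library (red) and the wild-type libraries 1 and 2 (dark and light blue), 1 point per library. Cubn and Srgn lie far below both wild-type points in K3R3, with 18.2 and 3.38 CPM, while the points of Sox7, Sox17 and Lrp2 interleave.

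Of the 4 transcription factor genes, only Gata6 was called. Gata6, whose product is the earliest specifier of primitive endoderm, had 194 counts in K3R3, against 309 and 472 counts in wild type. This corresponds to 7.45 CPM in K3R3 and 16.9 ± 3.05 CPM in wild type. The K3R3 library was below both wild-type libraries, at 50.7% of the lower and 39.2% of the higher one. Gata6 fell by 1.18 on the log2 scale (SE 0.36; adjusted p = 0.0480, edgeR quasi-likelihood), a 2.26-fold lower level. Against each wild-type library alone the log2 difference was -0.98 and -1.35, larger than the 0.37 between the wild-type libraries. The call sat at its threshold: adjusted p ranged from 0.0459 to 0.264 over 6 alternative settings, and 1 of them kept it.

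Gata4, which encodes the partner factor of GATA6 in primitive endoderm and heart, had 151 counts in K3R3, against 201 and 278 counts in wild type. Its level was 5.80 CPM in K3R3 and 10.4 ± 1.16 CPM in wild type, so the groups did not overlap. The fitted log2 difference was -0.84 (SE 0.39, 95% interval -1.61 to -0.07), which was not called (adjusted p = 0.361, edgeR quasi-likelihood). At this depth a change would have needed a log2 size of 1.27 to be called. The ratio of Gata6 to Gata4, which no scaling of the libraries can alter, was 1.36 in K3R3 against 1.63 and 1.80 in wild type by RPKM. Gata2 and Gata3, GATA factors of blood and trophoblast, stood above wild type, and neither was called (log2 0.60 and 1.08). Gata2 had 129 counts in K3R3 against 64 and 86 in wild type. Gata3 had 42 counts in K3R3 against 14 and 21 in wild type. Both are bivalent, that is, of a class whose median was 0.65.

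Sox7 and Sox17 encode SoxF factors that act after GATA6 in primitive endoderm and also in blood vessels. Sox7 had 122 counts in K3R3, against 85 and 128 counts in wild type, or 4.69 CPM in K3R3 and 4.60 ± 0.79 CPM in wild type. The K3R3 value lay between the wild-type values, and the fitted difference was 0.02 (95% interval -0.86 to 0.91). Sox17 had 33 counts in K3R3, against 20 and 47 counts in wild type, again between them. Its log2 difference was 0.40 against the first wild-type library and -0.56 against the second, with 0.96 between the wild-type libraries. These values do not show equal levels. At these counts a log2 change under 1.46 for Sox7 and under 2.33 for Sox17 could not have been called. A fall of the size of Gata6 (-1.18) would thus not have been called in either. The 95% interval of Sox7 stops short of that value, and that of Sox17 (-1.59 to 1.24) includes it. Both intervals use a spread shared by genes.

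Pdgfra encodes the PDGF receptor that marks primitive endoderm cells before they sort from the epiblast, and it is also strong in fibroblasts. It had 967 counts in K3R3, against 781 and 1226 counts in wild type. In CPM it stood at 37.1 in K3R3, against 37.2 and 49.4 in wild type, so K3R3 was level with the first wild-type library and below the second. The fitted log2 difference was -0.22 (SE 0.27, 95% interval -0.75 to 0.31) and was not called. The ratio of Gata6 to Pdgfra by RPKM was 0.413 in K3R3 and 0.814 and 0.792 in wild type, lower in K3R3 than in either wild-type library.

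**Figure D2:**
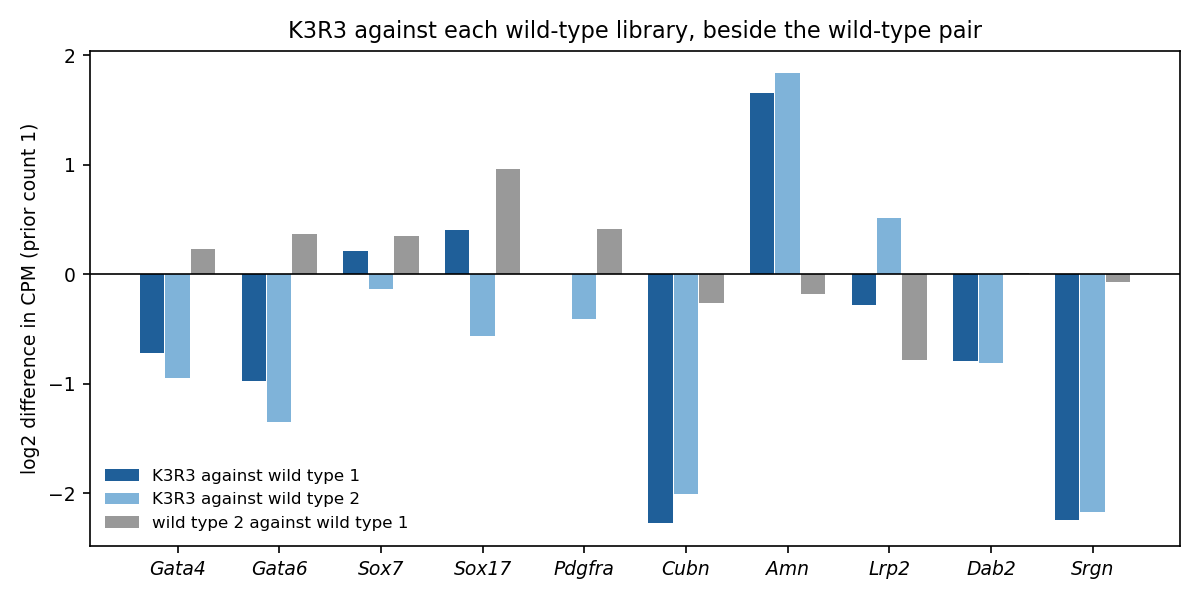
Log2 difference in CPM (prior count 1) for each gene, K3R3 against wild type 1 (dark blue), K3R3 against wild type 2 (light blue) and wild type 2 against wild type 1 (grey). For Cubn, Srgn, Dab2, Gata6 and Gata4 both blue bars are negative and longer than the grey one. For Sox7, Sox17 and Lrp2 the blue bars point in opposite directions.

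Of the uptake receptor genes Cubn, Lrp2 and Amn, only Cubn was called, and Amn was not tested. Cubn encodes cubilin, which binds the vitamin B12 carrier complex, albumin and lipoproteins, and which has no membrane span of its own. It had 475 counts in K3R3, against 1856 and 1828 counts in wild type. The level was 18.2 CPM in K3R3 and 81.0 ± 10.4 CPM in wild type. K3R3 stood at 24.8% of the lower and 20.7% of the higher wild-type value, while the wild-type libraries differed by a log2 value of -0.26. Cubn fell by 2.15 on the log2 scale (SE 0.27; adjusted p = 2.09e-11, edgeR quasi-likelihood), a 4.44-fold lower level, with -2.27 and -2.01 against each wild-type library. It was called under all 6 alternatives, and of all 13829 genes tested, 21 had a lower fitted value.

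Lrp2 encodes megalin, the receptor that works beside cubilin and brings it into the cell. It had 2304 counts in K3R3, against 2255 and 1544 counts in wild type. The level was 88.5 CPM in K3R3 and 84.7 ± 31.9 CPM in wild type, with K3R3 between the wild-type values. The log2 difference turned with the library it was set against, -0.28 against the first and 0.51 against the second, and the wild-type libraries differed by -0.79. The fitted value was 0.06 (95% interval -0.38 to 0.50). This interval uses a spread shared by genes and not the wild-type difference of Lrp2 itself, so it is narrower than that difference implies. Against neither wild-type library alone did Lrp2 fall by the size of Cubn. By RPKM the ratio of Cubn to Lrp2 was 0.282 in K3R3, against 1.12 and 1.62 in wild type. Cubilin transcripts thus stood above megalin transcripts per length in both wild-type libraries and below them in K3R3, whatever the scaling of the libraries.

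Amn encodes amnionless, the membrane protein that anchors cubilin and carries it to the surface. It was near silent, with 14 counts in K3R3 against 3 counts in each wild-type library, and its mean level was under the minimum for a test. The ratio of K3R3 to pooled wild type was 4.11 with an exact 95% interval of 1.48 to 13.0, which covers counting error only. Its direction was opposite to that of Cubn. Amn is bivalent, a class whose median was 0.65. By RPKM there were 5.05 cubilin transcripts per amnionless transcript in K3R3, against 92.0 and 90.7 in wild type. The amnionless level per length was the lowest of the 10 genes in each library, 0.225 RPKM in K3R3 and 0.0545 and 0.0468 RPKM in wild type.

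Dab2 encodes Disabled-2, the clathrin adaptor that binds the tail of megalin and is known in the mouse as a gene downstream of GATA6. It had 1048 counts in K3R3, against 1467 and 1749 counts in wild type. The level was 40.3 CPM in K3R3 and 70.1 ± 0.474 CPM in wild type, and the wild-type values were nearly equal, with a log2 difference of 0.01. K3R3 stood at 57.7% of the lower wild-type value. The fitted difference was -0.80 (SE 0.25, 95% interval -1.29 to -0.31) with an edgeR adjusted p of 0.0528, just outside the threshold. Over 6 alternatives the adjusted p ranged from 0.0486 to 0.171 and 1 of them called the gene.

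The promoters were also searched for the GATA motif, since both GATA factor genes are among the members. RefSeq promoters of build GRCm38.p6, 250 bases before to 50 bases after each start, were matched for 6 of the 10 genes (Pdgfra, Cubn, Amn, Lrp2, Dab2 and Srgn) and gave 8 windows. The motif was spelled as AGATAA or AGATAG, or either of these with T as the first letter, on both strands. It was found in 1 of the 8 windows, the first of the pair of Dab2 promoters, and 29.8% of all 32851 promoters of that length held it. That share keeps 1 chromosome whose promoters were not used for the match, so a gene without a match may still have a promoter. The matches are shown because, of the 6 genes matched, only Dab2 had a GATA hexamer in a window. The hexamer is in capitals. The first lies on the strand of the gene and the second on the opposite strand.
Dab2 match 179 bases before the start, chr15:6299598-6299627, plus strand: tgatttttcttcTGATAAcaggaataggag
Dab2 match 14 bases after the start, chr15:6299791-6299820, plus strand: attctctttggcTTATCTgctgtgcatttt
A match describes letters and not a bound site, and no hexamer in the Cubn, Srgn or other windows says only that these letters are not in 300 bases.

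Srgn encodes serglycin, the proteoglycan core protein of secretory granules, best known from blood cells and also made by a yolk sac tumour of the rat. It had 88 counts in K3R3, against 339 and 381 counts in wild type. The level was 3.38 CPM in K3R3 and 15.7 ± 0.550 CPM in wild type. K3R3 was at 22.0% of the lower wild-type library, and the wild-type libraries lay within a log2 difference of -0.07 of each other. Srgn fell by 2.22 on the log2 scale (SE 0.41; adjusted p = 2.82e-05, edgeR quasi-likelihood), a 4.65-fold lower level, with -2.24 and -2.17 against each wild-type library. It was called under all 6 alternatives.

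In the authors' deposited table, the fold ratio is wild type over K3R3 by its values, the reverse of its column name. It was 4.48 for Cubn (unadjusted p = 3.79e-10), 4.70 for Srgn (1.55e-06), 2.28 for Gata6 (0.00477) and 1.76 for Dab2 (0.00306) in the authors' deposited table. For Gata4 the authors' deposited table gives 1.81 with an unadjusted p of 0.0711. Of the other 5 genes in the authors' deposited table, Pdgfra (1.18) and Sox17 (1.13) are above 1 as well, and Sox7 (0.990), Lrp2 (0.966) and Amn (0.247) are below 1. A fold above 1, by the counts, means lower in K3R3, and it held for 7 of the 10. Over all genes tested the median fitted difference was -0.01, so a fold above 1 alone says little. Of the 7, Pdgfra was level with the first wild-type library, and Sox17 lay between the wild-type values.

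Per length, the order of the genes differed between the lines. In wild type Srgn was first with 11.1 and 10.7 RPKM, followed by Dab2 with 9.94 and 10.2 RPKM. Cubn (5.02 and 4.25 RPKM), Pdgfra (3.64 and 4.91 RPKM), Lrp2 (4.46 and 2.63 RPKM) and Gata6 (2.96 and 3.89 RPKM) came next, and the ranges of neighbours in that order overlapped. Gata4 (1.81 and 2.16 RPKM), Sox7 (0.797 and 1.03 RPKM), Sox17 (0.196 and 0.395 RPKM) and Amn ended the list without overlap. In K3R3, Dab2 was first with 6.30 RPKM, then Lrp2 with 4.04 and Pdgfra with 3.99, then Srgn with 2.55 and Gata6 with 1.65 RPKM. Gata4 (1.21 RPKM), Cubn (1.14 RPKM) and Sox7 (1.01 RPKM) followed, so Cubn stood below Gata6 and Gata4 in K3R3 and above both in each wild-type library.

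By promoter class, 8 of the 10 genes were bivalent, Srgn was active and Cubn had no class in the deposited table. Bivalent genes had a median of 0.65 in this library, and 10.5% of the 1671 tested lay below both wild-type libraries. Of the 7 bivalent genes tested here, 4 did (Gata4, Gata6, Pdgfra and Dab2), with Pdgfra level with its nearest wild-type value. Of all 1671 bivalent genes, 9 were called lower (0.539%) and 175 higher (10.5%), and Gata6 was 1 of those 9. A fitted value lower than that of Gata6 was found for 13 bivalent genes, than that of Gata4 for 31 and than that of Dab2 for 38. No test of these genes against their class was made.

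**Figure D3:**
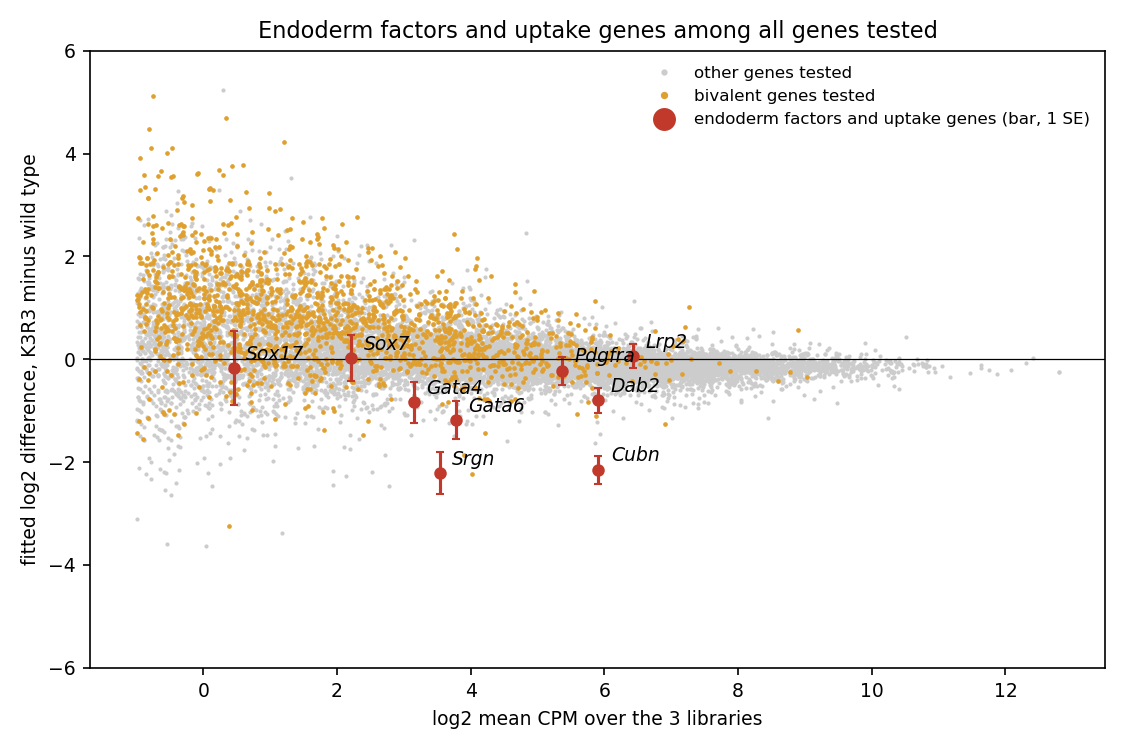
Fitted log2 difference, K3R3 minus wild type, against log2 mean CPM over the 3 libraries, for all 13829 genes tested, with bivalent genes in orange. The 9 tested genes are in red with bars of 1 SE; Cubn at -2.15 and Srgn at -2.22 lie at the lower edge of the cloud, and Sox7 and Lrp2 lie close to 0, at 0.02 and 0.06.

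Among 9962 other genes whose mean reached 5 CPM, likeness was measured as the distance between pairs of log2 differences from the wild-type libraries, over 3 libraries. Srgn was the nearest gene to Cubn and Cubn the nearest to Srgn, at a distance of 0.162. Otx2, which encodes a factor of epiblast and anterior visceral endoderm, was also among the 3 nearest genes of both (141 counts in K3R3, 490 and 403 in wild type). The nearest to Gata6 were Ephx2, Stard8 and Ypel2, at distances of 0.203, 0.292 and 0.344. All 3 were classed as active.

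Other genes of primitive and visceral endoderm were mostly not called. Of 34 other genes of this lineage, 23 had a row and 20 were tested; 2 rose, 0 fell and 18 were not called. Both that rose, Rbp4 and Foxa1, are bivalent, a class of which 10.5% were called higher. Rbp4, which encodes the retinol carrier, had 48 counts in K3R3, against 3 and 4 counts in wild type, 12.1 times the wild-type level (exact 95% counting interval 5.43 to 31.6). It passed the minimum of 0.5 CPM only through its K3R3 level, with 1.84 CPM in K3R3 and 0.143 and 0.161 CPM in wild type, so its call supports no direction of the list. Foxa1, a forkhead factor of definitive endoderm, had 81 counts in K3R3, against 13 counts in each wild-type library (log2 2.44). DESeq2 called neither, and at a minimum mean of 2 CPM 0 of the list were called higher. The most abundant were Apoe, the apolipoprotein E gene, with 34.1 RPKM in K3R3 and 38.6 and 31.4 RPKM in wild type, and Cldn6, a claudin gene, with 19.9 RPKM in K3R3 and 19.7 and 11.1 RPKM in wild type. The list median was 0.33, but -0.06 against the first wild-type library and 0.75 against the second, so it depended on which was used. Genes of secreted visceral endoderm products such as Afp, Ttr and Apoa1 had no row and were not analysed here.

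Basement membrane and parietal endoderm genes lay below 0 in 10 of 12 cases, where the median of all genes tested was -0.01. Of the 12, 2 fell, 0 rose and 10 were not called, where 0.542% of all genes tested were called lower. Lama1, the laminin alpha chain of Reichert's membrane, had 2401 counts in K3R3, against 4210 and 3776 in wild type (log2 -0.93), and Col4a1, a type IV collagen chain, 864 counts in K3R3, against 1890 and 1302 in wild type (log2 -1.10). Sparc and Lamc1, the most abundant, had log2 differences of -0.57 and -0.48 and were not called. The median was -0.51, with -0.40 between the wild-type libraries. DESeq2 kept Lama1, and Col4a1 stood at -0.66 against the second wild-type library alone. Of 7 anterior visceral endoderm genes, 5 were tested and 1 fell, Otx2 (log2 -1.87); Lefty1, a Nodal inhibitor, had 910 counts in K3R3, against 529 and 658 in wild type, and was not called.

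The general machinery of endocytosis was mostly not called. The 32 genes ran from clathrin and its adaptors to early endosome and lysosome proteins. Of these, 1 fell, 0 rose and 31 were not called, where 0.542% of all genes tested were called lower. Their median was -0.06. Under library totals implied by RPKM it was 0.06, where the median of all genes moved from -0.01 to 0.10. The gene that fell was Cltb, a clathrin light chain, with 214 counts in K3R3, against 522 and 325 counts in wild type (log2 -1.20), and neither DESeq2 nor the fit with implied totals called it. Its difference from the second wild-type library was -0.67. Lamp1, a lysosome membrane gene, stood at 154 RPKM in K3R3 and 141 and 145 RPKM in wild type, and Ctsl, a cathepsin gene, at 136 RPKM in K3R3 and 129 and 132 RPKM in wild type. Lrpap1, the chaperone of megalin, picked once its values were known, had 1455 counts in K3R3, against 1813 and 1492 in wild type. Of 18 other uptake receptors, 17 were tested and 0 were called by edgeR or DESeq2 (3 higher and 0 lower at an unadjusted p under 0.05), with a median of 0.08. At that unadjusted threshold, 1092 of all 13829 genes tested were higher and 460 lower. Tfrc, the transferrin receptor, had a log2 difference of 0.08.

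Signals that set the choice between epiblast and primitive endoderm were tested as well. Of 22 genes of FGF and PDGF signalling, 0 were called by edgeR or DESeq2 (1 higher and 1 lower at an unadjusted p under 0.05). Their median of -0.09 differed in sign from their mean of 0.07. Under library totals implied by RPKM their median was 0.04, where the median of all genes moved from -0.01 to 0.10. Etv5, an ERK target, stood at 59.5 RPKM in K3R3, against 68.3 and 61.2 RPKM in wild type. Of 15 epiblast factors, 5 fell and 0 rose: Tbx3 (-1.25), Tfcp2l1 (-0.85), Klf4 (-0.78), Sox2 (-0.62) and Dppa5a (-0.59). Among all genes tested, 0.542% were called lower and 2.02% higher. DESeq2 kept Tbx3 and Tfcp2l1, and 3 factors were called with implied totals and 3 by the likelihood ratio test. Against the second wild-type library alone Dppa5a stood at -0.23. The median of the 15 was -0.36, beside -0.01 over all genes tested. Only Nanog of the 15 lay above 0 (986 counts in K3R3 against 653 and 885 in wild type, not called, named after its value was seen). The 15 defining ES cell factors were all present, with a summed level of 2294 RPKM in K3R3 and 3348 and 2578 RPKM in wild type. Dppa5a alone held 1124 RPKM of the sum in K3R3 and 1875 and 1215 RPKM in wild type.

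**Figure D4:**
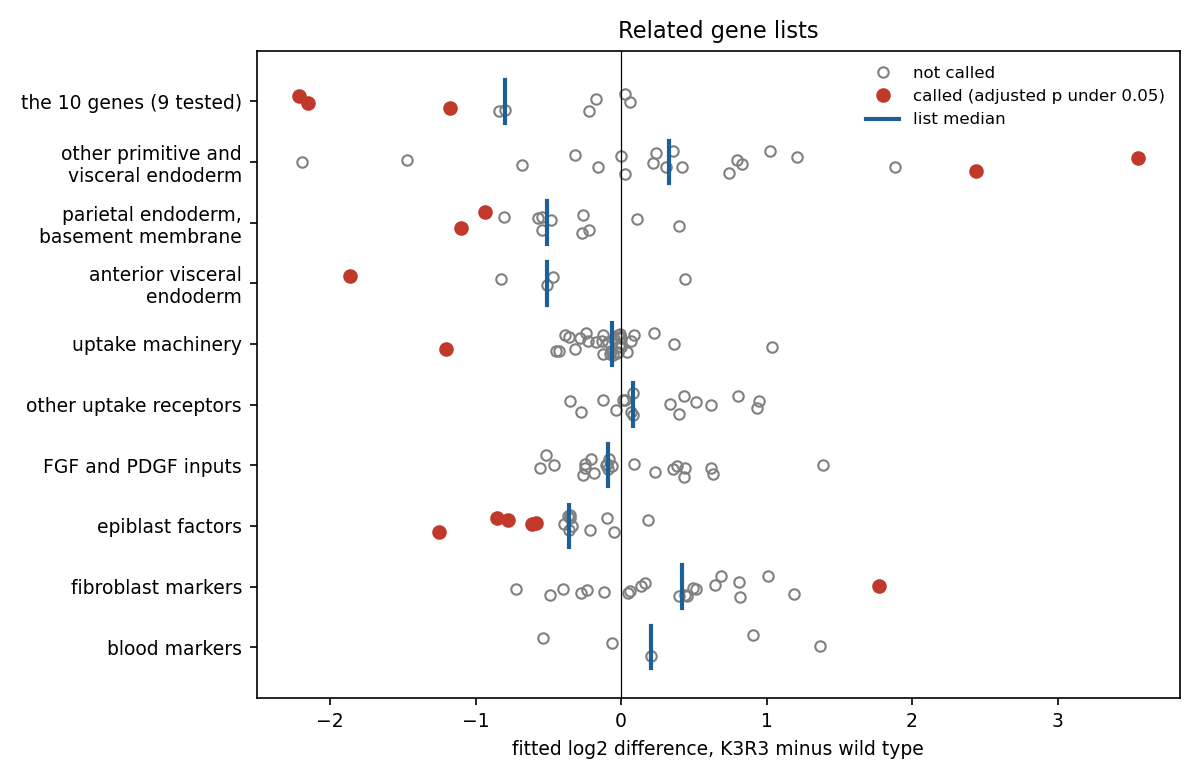
Fitted log2 difference, K3R3 minus wild type, for each tested gene of the 10 and of 9 related lists, with called genes filled in red and the list median as a blue bar. The 9 tested genes have a median of -0.80, while other primitive and visceral endoderm genes have 0.33 and uptake machinery -0.06.

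Markers of other cell types were examined beside these genes. ES cells had been kept on irradiated fibroblasts until the last passage, and Pdgfra and Dab2 are also expressed by fibroblasts. Of 25 fibroblast markers, 22 were tested; Thy1 rose (log2 1.77, 136 counts in K3R3 against 39 and 30 in wild type; not called by DESeq2), 0 fell, and the median was 0.42. At an unadjusted p under 0.05, 5 were higher and 2 lower, beside 1092 higher and 460 lower of all 13829 genes tested. K3R3 lay above both wild-type libraries in 14 of the 22 and below both in 2, beside 33.9% and 34.2% of all genes tested. Of the 22, 9 were bivalent, Thy1 among them. That class had a median of 0.65, with 10.5% called higher and 10.5% below both wild-type libraries. The list was not tested against its classes. Their summed level was 218 RPKM in K3R3 and 260 and 213 RPKM in wild type, led by Fn1 and Vim, which had log2 differences of -0.49 and -0.40. Without these 2, a sum made after the values were seen, it was 81.3 RPKM in K3R3 and 78.9 and 52.0 RPKM in wild type. Of 15 blood markers, for Srgn, 6 had a row and 5 were tested; 0 were called by edgeR or DESeq2 (1 higher and 1 lower at an unadjusted p under 0.05). Their sum was 28.2 RPKM in K3R3 and 32.2 and 25.9 RPKM in wild type, of which Laptm5 and Cd68 held the most, and the defining markers Ptprc, Csf1r and Spi1 had no row. The part of such cells in the values of Pdgfra, Dab2 and Srgn was not tested. The counting's strand setting is not given, so reads of transcripts annotated on the opposite strand of Gata6, Sox17, Pdgfra, Cubn and Dab2 cannot be told from those of the genes.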

How the data were processed

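Polyadenylated RNA was extracted with TRIzol and made into strand-specific libraries, per the labels' protocols. The deposited table gives whole read counts, for which the submitters' processing notes name HTSeq 0.5.4p1 and mm9. Not given in the sources used here are aligner, annotation and strand setting. The authors also deposited RPKM values for each library. The deposited fold ratio, its log2 and its unadjusted p-value come from the authors' comparison, for which the notes name DESeq 1.10.1. Promoter classes are from an earlier study, per the file headers.

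Counts were tested with edgeR 4.0.16 in R 4.3.3 (TMM on all genes, then a mean of at least 0.5 CPM, glmQLFit). The spread came from the wild-type pair over all genes (1 residual degree of freedom, infinite prior degrees of freedom). Each gene thus took a spread shared by genes, not its own. K3R3, with 1 library, was taken to vary as much as wild type. SE is the log2 difference divided by the square root of F. Alternatives were DESeq2 1.42.0, its size factors, totals implied by RPKM, no filter, a minimum of 2 CPM and the likelihood ratio test. Ratio intervals are exact conditional binomial 95% intervals for counting error. From each related list, called genes (at most 6) and the 2 with the highest RPKM were named, and for each called member its 3 nearest genes; some genes that this rule takes are not reported here. Overlapping transcripts were taken by name from the GENCODE annotation of GRCm38. The members and lists were chosen with earlier results of these data known.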

Additional observations from a re-analysis of the deposited data

How the results depend on the processing

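Of the 9 tested genes, Cubn and Srgn were called lower under each of the 6 alternative settings, and no tested gene changed direction under these 6. Gata6 was lost with totals implied by RPKM (-1.06, adjusted p = 0.0781), without a filter (0.0618), at a minimum mean of 2 CPM (0.0502), with DESeq2 (0.264) and with the likelihood ratio test (0.0597); Dab2 was gained with DESeq2 size factors (0.0486). The members' median was -0.68 with totals implied by RPKM, under which the median of all genes was 0.10, and -0.51 without a filter, where Amn enters; it ranged from -0.81 to -0.72 with 1 wild-type library left out. Over all genes, totals implied by RPKM called 465 higher and 50 lower (90.3% higher, against 78.9%), and DESeq2 33 higher and 26 lower (55.9% higher). With 1 library on each side there is no test, and Lrp2 stood at 0.51 without the first wild-type library and -0.28 without the second. No paired analysis was possible because K3R3 has 1 library and its label carries no replicate number. Depth limits Sox17 and Amn, and without a second K3R3 library the mutation and that culture cannot be told apart.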

Other observations

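Some values of the related lists, chosen after they were seen, bear on how alike the wild-type libraries were in endoderm and epithelial genes. The simple epithelial keratins of extra-embryonic epithelia differed strongly within wild type: Krt18 had 857 counts in K3R3, against 937 and 218 counts in wild type, Krt8 had 502 counts in K3R3, against 509 and 151 in wild type, and Krt19 had 57 counts in K3R3, against 56 and 16 in wild type. K3R3 was close to the first wild-type library in all 3, as it was for Lrp2, and none was called. Foxq1, a forkhead gene expressed in primitive endoderm, had 62 counts in K3R3, against 133 and 172 in wild type (log2 -1.48, edgeR adjusted p = 0.0622). Hnf4a, a nuclear receptor of visceral endoderm, had 5 counts in K3R3, against 27 and 13 in wild type, and Trf, the transferrin gene, had 257 counts in K3R3, against 96 and 99 in wild type (log2 1.21, edgeR adjusted p = 0.0789); neither was called. Genes of the same lineage thus stood on both sides of wild type in the K3R3 library.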
